A study of Mus musculus with 8 samples.

Results

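The epidermal differentiation complex is a cluster of genes on mouse chromosome 3 that encode structural and calcium-binding proteins of the cornified cell envelope. Its members were taken as the genes listed on chromosome 3 whose names start with Lce, Sprr, or S100a and a digit, together with Lor, Ivl, Flg, Flg2, Rptn, Hrnr, Crnn, Crct1, Pglyrp3 and Pglyrp4, and S100a3, Tchh and Tchhl1 were left out. This rule found 46 of the 32693 genes listed in at least 1 of the 2 deposited tables. The untreated table lists 44 of them among 29647 genes, the 5-aza table lists 28 among 29246 genes, and 26 are in both. All 46 are protein-coding in the GENCODE annotation of GRCm38, and they lie between bases 90511034 and 93564643 of chromosome 3.

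The RNA came from sorted hair matrix keratinocytes, the proliferating epithelium of the hair bulb, taken from mouse skin at postnatal day 4.5. The genotypes were wild type (WT) and Tet2/Tet3 double knockout with Krt14-Cre (DKO), and mice of each were either untreated or given 50 µg of 5-aza under the skin at postnatal day 2.5, with 2 libraries in each of the 4 groups. Tet2 and Tet3 encode dioxygenases that oxidise 5-methylcytosine in DNA, the Krt14 promoter that drives Cre is active in basal keratinocytes, and 5-aza inhibits DNA methyltransferases. The labels give neither the deleted exons, nor whether WT mice carried Cre, nor whether the libraries of a group came from separate animals. The p-values thus weigh a difference against the spread between libraries, of the gene and of all tested genes. They do not weigh it against a known spread between animals.

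The depth in reads on listed genes was 11825515 to 14132115 without treatment and 16744915 to 23512270 after 5-aza. Tet3 was 11.4 to 11.8 FPKM in untreated WT and 6.92 to 7.31 in untreated DKO, and 10.4 to 11.5 in WT and 5.99 to 6.54 in DKO after 5-aza. Tet2 differed less, from 3.23 to 3.28 FPKM in untreated WT and from 2.55 to 2.72 in untreated DKO. Whole-gene values check the labels only as far as reads come from the deleted exons. The matrix markers Lef1 and Msx2 were detected in all 8 libraries, at 7.57 to 9.94 and 14.2 to 22.7 FPKM. Xist, transcribed from the inactive X chromosome, was 82.1 and 74.4 FPKM in replicate 1 of untreated WT and DKO and 0.327 and 1.19 in replicate 2. After 5-aza it was 16.9 and 23.1 FPKM in WT and 4.60 and 3.65 in DKO, so that in this comparison sex composition and genotype cannot be told apart.

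Keratinocytes that leave the basal layer of the epidermis cross-link a protein envelope under the plasma membrane as they die and flatten. Involucrin and the small proline-rich proteins are laid down early in this envelope, loricrin forms most of it, filaggrin and its relatives bundle keratin filaments, and late cornified envelope proteins are added last. The hair matrix does not follow this route: its cells become hair shaft and inner root sheath, and the granular-layer genes of the complex are known from the epidermis and the upper follicle. AP-1 factors are known activators of several genes of the complex, and CG dinucleotides are the sites at which DNA methylation is found in mammals.

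Because the study concerns DNA methylation, the promoters of 6 members that carry the results below are shown, as the 250 bases before the start of transcription in RefSeq on GRCm38.p6, 5′ to 3′ on the gene's strand, with each match to the AP-1 motif TGANTCA in capitals. Filaggrin (Flg, chr3:93273296-93273545, plus strand), filaggrin 2 (Flg2, chr3:93197023-93197272, plus strand), hornerin (Hrnr, chr3:93319499-93319748, plus strand) and loricrin (Lor, chr3:92083143-92083392, minus strand) are shown because 1 WT library held most of their reads in the untreated table. Sprr1a (chr3:92485882-92486131, minus strand) is shown for its higher level in untreated DKO, and S100a11 (chr3:93520246-93520495, plus strand) for a promoter window richer in CG dinucleotides than those of the other 5.
Flg: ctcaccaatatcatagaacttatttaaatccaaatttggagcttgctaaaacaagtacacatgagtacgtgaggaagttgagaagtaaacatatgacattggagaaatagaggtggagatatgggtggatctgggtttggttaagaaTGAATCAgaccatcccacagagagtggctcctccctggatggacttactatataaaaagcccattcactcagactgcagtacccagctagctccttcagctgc
Flg2: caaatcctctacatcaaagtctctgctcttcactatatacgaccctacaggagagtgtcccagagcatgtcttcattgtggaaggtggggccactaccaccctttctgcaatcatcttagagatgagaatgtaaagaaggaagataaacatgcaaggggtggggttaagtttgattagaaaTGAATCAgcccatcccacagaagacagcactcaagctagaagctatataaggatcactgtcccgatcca
Hrnr: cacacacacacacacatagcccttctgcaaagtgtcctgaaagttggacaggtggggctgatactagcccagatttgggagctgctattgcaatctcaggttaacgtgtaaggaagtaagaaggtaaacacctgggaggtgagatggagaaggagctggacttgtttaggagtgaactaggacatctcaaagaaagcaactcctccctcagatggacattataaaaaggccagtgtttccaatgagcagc
Lor: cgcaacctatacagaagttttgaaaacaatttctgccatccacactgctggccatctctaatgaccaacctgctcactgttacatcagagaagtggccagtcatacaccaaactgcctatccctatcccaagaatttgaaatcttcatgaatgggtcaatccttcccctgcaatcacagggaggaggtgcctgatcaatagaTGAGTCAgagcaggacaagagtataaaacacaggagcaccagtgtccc
Sprr1a: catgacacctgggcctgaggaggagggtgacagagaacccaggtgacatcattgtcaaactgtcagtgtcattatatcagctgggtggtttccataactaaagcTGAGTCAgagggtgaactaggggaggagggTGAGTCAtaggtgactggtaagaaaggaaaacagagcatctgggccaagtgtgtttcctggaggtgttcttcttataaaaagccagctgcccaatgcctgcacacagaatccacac
S100a11: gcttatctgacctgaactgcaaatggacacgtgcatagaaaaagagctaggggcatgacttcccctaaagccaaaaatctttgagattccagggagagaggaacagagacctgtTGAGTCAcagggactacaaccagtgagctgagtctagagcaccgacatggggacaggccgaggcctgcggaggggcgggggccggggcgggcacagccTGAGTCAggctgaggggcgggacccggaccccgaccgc

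The motif TGANTCA, which reads the same on both strands in this notation, ended 42 bases before the start in Lor, 63 in Flg2 and 97 in Flg. Sprr1a held it at 140 and 110 bases before the start and S100a11 at 130 and 32. In Hrnr these letters were not found in this window. RefSeq windows of 300 bases, 250 before and 50 after the start, were at hand for 39 of the 46 members, 40 windows in all. TGANTCA stood in 12 of these 40 windows (30%) and in 7.81% of the 32851 windows of all genes, and AACNGGTT, a Grainyhead-like motif searched on both strands, in 2 (5%) and in 2.09%. The members' windows were poor in CG, with a median of 1.5 CG dinucleotides against 7 over all windows, and 36 of the 40 (90%) held 5 or fewer against 43.6% of all windows. The Sprr1a window held 0, the Lor and Hrnr windows 1, the Flg window 2, the Flg2 window 3 and the S100a11 window 15. Windows of gene families share sequence, and a match describes letters, not a bound site.

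Levels over the complex spanned from no read to 38.1 FPKM, and the S100 genes made up most of the summed level in all 8 libraries. The 6 members with the highest mean FPKM over the 8 libraries were S100a11, S100a14, S100a10, S100a6, S100a16 and Sprr1a, at 27.6, 22.3, 21.3, 13.2, 11.5 and 7.09. The 13 S100 genes summed to between 72.4 and 129 FPKM in a library, of 104 to 142 FPKM for all members. The granular-layer genes were low in 7 of the 8 libraries: the 5 S100 fused-type genes Flg, Flg2, Hrnr, Rptn and Crnn summed to 12.9 FPKM in untreated WT replicate 1, to 0.785 to 1.49 in the other 3 untreated libraries, and to 0.188 to 0.440 after 5-aza. The 2 tables were normalized separately, so that levels with and without 5-aza stand side by side here and were not tested against each other.

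**Figure D1:**
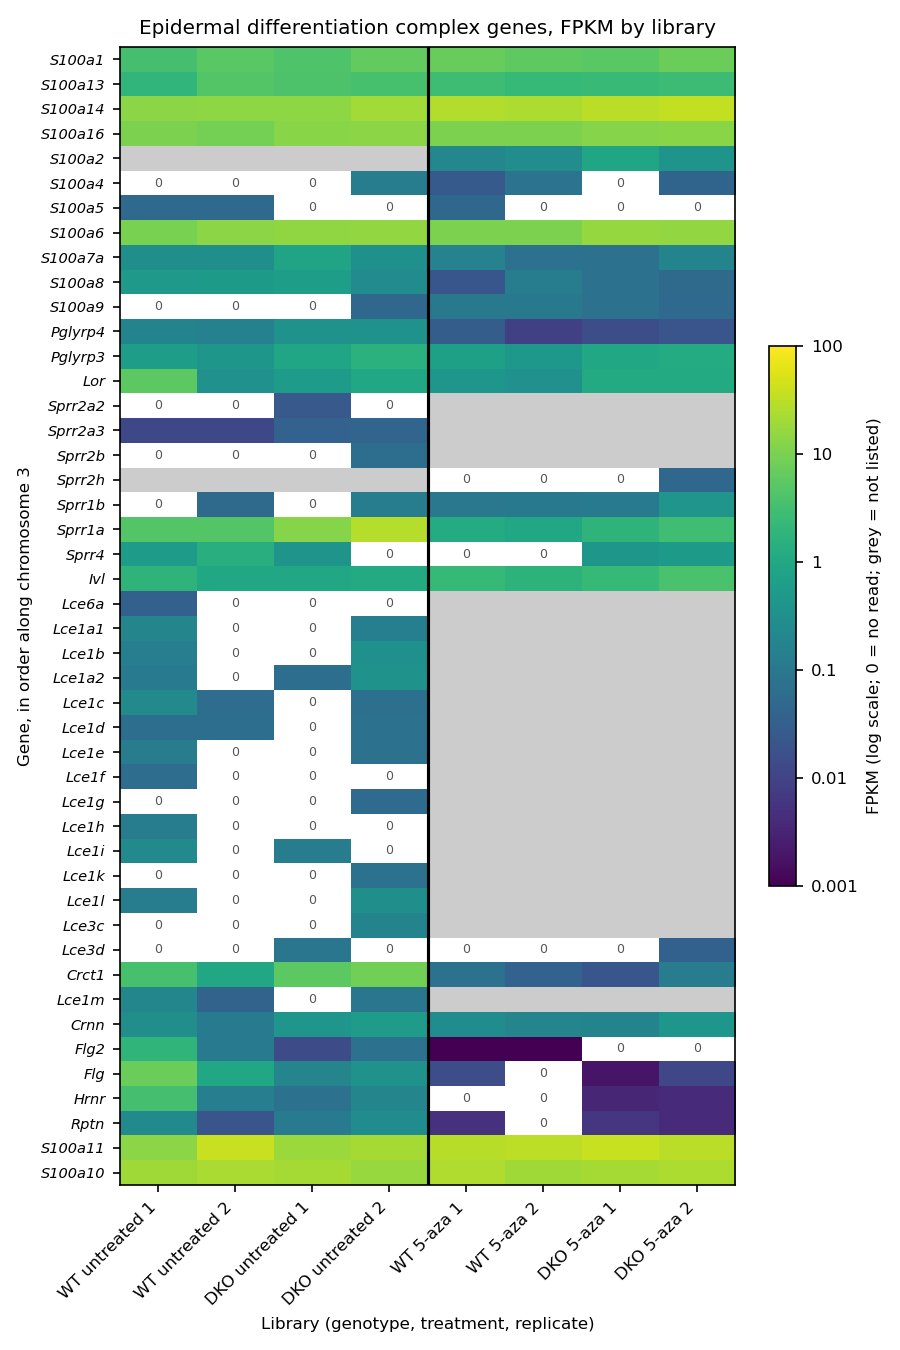
FPKM of the 46 members (rows, in order along chromosome 3) in the 8 libraries (columns), as colour on a log scale, with 0 for no read and grey for a gene not listed in that table. S100a14, S100a16, S100a6, S100a11 and S100a10 are at 8.90 FPKM or more in every library, the Lce genes between Ivl and Crnn are at or near 0, and Flg, Flg2, Hrnr and Lor are highest in the WT untreated 1 column.

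In untreated mice Sprr1a, a small proline-rich envelope precursor also known to be induced in stressed and wounded epidermis, was higher in DKO than in WT. Sprr1a was 4.68 and 4.69 FPKM in WT and 12.6 and 27.7 FPKM in DKO. Both DKO libraries lay above both WT libraries, and they differed from each other by more than the WT libraries did. The means were 4.69 ± 0.00769 in WT and 20.2 ± 10.7 in DKO (SD, n = 2), a 4.30-fold difference. In the limma fit on log2(FPKM + 1) the difference was 1.80 ± 0.36 (SE), with an adjusted p of 0.225 over 17339 genes, which does not pass the threshold of 0.05. In the authors' deposited table Sprr1a rose in DKO by 2.07 ± 0.34 (SE) on the log2 scale, with an adjusted p of 3.28e-07 from DESeq2. It was the only member past 0.05 there among 44, where 0.793% of the listed genes were higher in DKO and 0.486% lower.

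Crct1, which encodes a cysteine-rich envelope protein, was also higher in untreated DKO. It was 3.58 and 0.973 FPKM in WT and 5.57 and 8.60 FPKM in DKO, without overlap. The means were 2.28 ± 1.85 and 7.08 ± 2.15 (SD, n = 2), with a limma difference of 1.40 ± 0.44 (SE) and an adjusted p of 0.364. After 5-aza Crct1 was near the limit of detection in both genotypes, at 0.0723 and 0.0372 FPKM in WT and 0.0216 and 0.131 in DKO, from 1 to 9 reads a library.

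In Flg, Flg2, Hrnr and Lor, WT replicate 1 stood apart from the other 3 untreated libraries. Flg, the precursor of filaggrin, was 7.13 and 0.949 FPKM in WT and 0.186 and 0.364 FPKM in DKO. Flg2 was 1.88 and 0.115 FPKM in WT and 0.0146 and 0.0755 in DKO. Hrnr, a filaggrin-like protein, was 3.35 and 0.137 FPKM in WT and 0.0784 and 0.190 in DKO. In Flg and Flg2 both WT libraries lay above both DKO libraries, and in Hrnr the second WT library lay between the DKO libraries. Lor, the main envelope protein, was 5.57 and 0.346 FPKM in WT and 0.557 and 1.01 in DKO, so that the WT libraries were the highest and the lowest of the 4.

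WT replicate 1 exceeded the highest of the other 3 libraries 7.51-fold in Flg, 16.3-fold in Flg2, 17.6-fold in Hrnr and 5.52-fold in Lor. A 5-fold excess of this kind was found in 7 of the 17339 tested genes (0.0404%), and these 4 members were among the 7. The others, named after their values were seen, were the suprabasal keratin Krt78, Ces2f and Hist1h4m. A 3-fold excess was found in 22 tested genes (0.127%) and a 2-fold excess in 96 (0.554%), with the same 4 members each time. No such count was made for the other 3 libraries. With all 4 libraries the limma differences were -1.65 ± 0.67 for Flg, -0.78 ± 0.45 for Flg2, -0.97 ± 0.63 for Hrnr and -0.75 ± 0.75 for Lor (SE), with adjusted p of 0.461, 0.580, 0.635 and 0.772. Without WT replicate 1, where the lone WT library is assumed to vary as the DKO libraries do, they were -0.62 ± 0.11, -0.094 ± 0.055, -0.0050 ± 0.076 and 0.39 ± 0.18, and the sign of Lor turned.

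**Figure D2:**
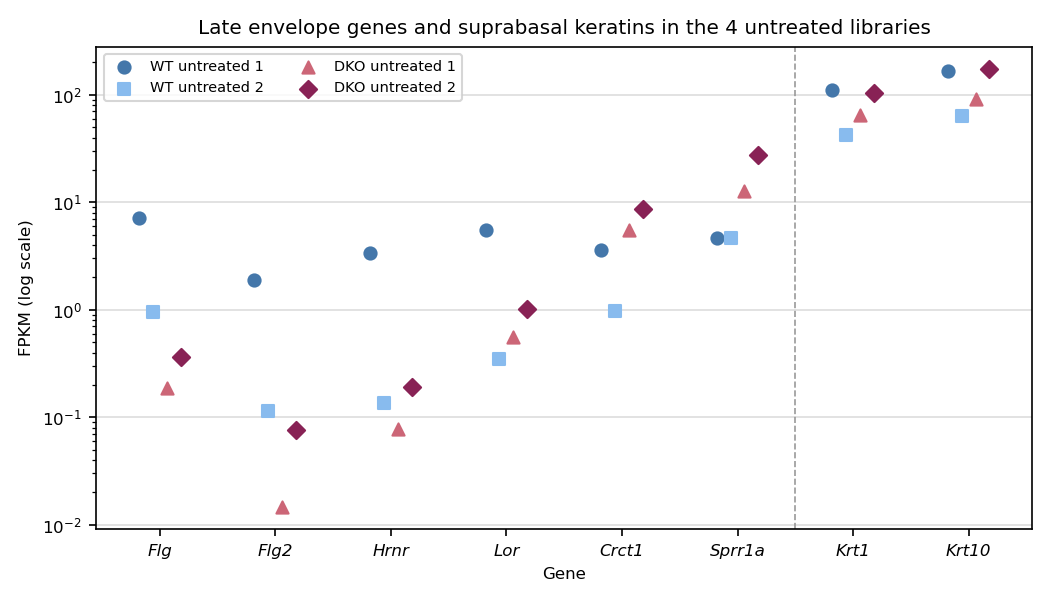
FPKM (log scale) of 6 members and of the keratins Krt1 and Krt10 in each of the 4 untreated libraries, with 1 symbol per library. WT replicate 1 lies at least 5.52-fold above the other libraries in Flg, Flg2, Hrnr and Lor, but not in Crct1, Sprr1a, Krt1 or Krt10.

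The suprabasal keratins Krt1 and Krt10, which mark the layer beneath the granular layer, did not follow the same order. Krt1 was 110 and 42.6 FPKM in untreated WT and 65.3 and 103 in untreated DKO, and Krt10 was 168 and 63.4 in WT and 91.0 and 174 in DKO. WT replicate 1 and DKO replicate 2 were thus alike in both keratins, while WT replicate 1 exceeded DKO replicate 2 in Flg 19.6-fold and in Hrnr 17.6-fold. Over the 7 markers of suprabasal epidermis, all of them listed, the summed level was 351 and 156 FPKM in WT and 227 and 389 in DKO. The 5 markers of basal epidermis and outer root sheath summed to 410 and 496 FPKM in WT and 786 and 863 in DKO. The 6 fibroblast markers summed to 465 FPKM in WT replicate 1 and to 1133 to 1348 in the other 3 libraries. Col1a1 alone was 267 FPKM in WT replicate 1 and 773 to 886 in the other 3. Dcn was 27.3 FPKM against 31.9 to 43.3. Pdgfra, at 7.02 FPKM in WT replicate 1, lay within the range of the other 3, 5.94 to 8.56. The part of these other cells in the levels of the complex was not tested. In bulk libraries such as these, fewer cells of a type and less RNA per cell cannot be told apart.

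Outside the complex, a list of 28 cornification genes (envelope enzymes, plakins, kallikreins and lipid-barrier enzymes) was likewise highest in WT replicate 1 or DKO replicate 2 for all but 1 gene. WT replicate 1 was the highest of the 4 in 13 of the 28, against 17.8% of all tested genes, and DKO replicate 2 in 14, against 30.6%. Among the members, WT replicate 1 was the highest in Flg, Flg2, Hrnr, Lor and Ivl, and DKO replicate 2 in 10 of the 20 tested. Of the 28 cornification genes 18 had a positive difference, beside 53.8% of all tested genes, with a median of 0.26. At an unadjusted limma p under 0.05, 3 were higher in DKO (6.72% of all tested genes) and 1, Scel, lower (4.73%). Scel, which encodes the envelope protein sciellin, was 6.53 and 5.31 FPKM in WT and 1.36 and 1.44 in DKO. Its limma difference was -1.52 ± 0.12 (SE), with an adjusted p of 0.0831. Of the 20 tested regulators of late epidermal differentiation none passed the threshold in limma. At an unadjusted limma p under 0.05, 6 were higher, beside 6.72% of all tested genes, and 0 lower, beside 4.73%. Ovol1, a zinc-finger repressor of epithelial progenitors, was 11.7 and 11.1 FPKM in WT and 17.2 and 19.3 in DKO, with an adjusted p of 0.177.

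Involucrin overlapped between the genotypes, and of the remaining S100 fused-type genes Crnn did not. Ivl was 1.78 and 1.01 FPKM in untreated WT and 0.985 and 1.12 in DKO, with overlapping libraries and a limma difference of -0.20 ± 0.17 (SE, adjusted p 0.728). Crnn, cornulin, was 0.301 and 0.118 FPKM in WT and 0.397 and 0.590 in DKO, both DKO libraries above both WT libraries, a ratio of means of 2.36 and a limma adjusted p of 0.394. Rptn, repetin, was 0.233 and 0.0212 in WT and 0.109 and 0.272 in DKO, with overlapping groups and 2 to 22 reads a library. The reads of Hrnr and Rptn could include those of a gene on the other strand that overlaps both, since the strand setting of the counting is not given in the sources used here.

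The peptidoglycan recognition proteins Pglyrp3 and Pglyrp4, secreted antibacterial proteins of epithelia, were higher in untreated DKO. Pglyrp3 was 0.597 and 0.439 FPKM in WT and 0.901 and 1.58 in DKO, and Pglyrp4 was 0.178 and 0.161 in WT and 0.357 and 0.364 in DKO. Neither gene's groups overlapped, with mean ratios of 2.40 and 2.13. The limma differences were 0.55 ± 0.17 and 0.22 ± 0.044 (SE), with adjusted p of 0.352 and 0.225. Pglyrp4 passed the threshold only when the 8 libraries were fitted together in limma, with an adjusted p of 0.0353. That fit called 129 of 18505 genes, and its Pglyrp4 estimate was again 0.22, with an SE of 0.027. Its SE also draws on the 5-aza libraries, where Pglyrp4 had few reads. After 5-aza Pglyrp3 was 0.694 and 0.456 FPKM in WT and 0.990 and 1.18 in DKO (limma adjusted p 0.437). Pglyrp4 was then 0.0302 and 0.00888 in WT and 0.0154 and 0.0209 in DKO, from 2 to 7 reads a library.

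Markers of antigen-presenting cells were higher in the same libraries. Of the 7 macrophage and Langerhans cell markers, all 7 were higher in untreated DKO on average. Of these, 4 had an unadjusted limma p under 0.05, beside 6.72% of all tested genes that were higher at that p. Their summed level was 3.42 and 4.54 FPKM in WT and 9.34 and 12.2 in DKO. The langerin gene Cd207, a marker of Langerhans cells though not of them alone, was 0.404 and 0.261 FPKM in WT and 0.950 and 1.01 in DKO. The part of these cells in the differences of the complex was not tested.

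Of the S100 genes, small calcium-binding proteins, 7 reached 1 FPKM in each library. S100a16 was 10.2 and 8.90 FPKM in untreated WT and 13.0 and 13.5 in DKO, with means of 9.57 ± 0.952 and 13.2 ± 0.328 (SD, n = 2), a ratio of 1.38, and a limma adjusted p of 0.277. S100a6, calcyclin, was 10.03 and 13.4 FPKM in WT and 14.7 and 15.4 in DKO, without overlap and with an adjusted p of 0.480. S100a14 was 13.2 and 13.9 in WT and 14.2 and 19.8 in DKO, with an adjusted p of 0.597. The groups of S100a14 were apart by less than the DKO libraries differed from each other, and they overlapped once values were scaled to the reads in listed genes.

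S100a10, the light chain of the annexin A2 complex, was 19.0 and 23.5 FPKM in untreated WT and 21.0 and 17.0 in DKO, with overlapping groups and a limma adjusted p of 0.782. S100a11, which binds annexin A1, was 13.6 and 38.1 FPKM in WT and 17.8 and 21.7 in DKO, so that the WT libraries were the lowest and the highest. Its limma difference was -0.21 ± 0.48 (SE, adjusted p 0.916), and it was -0.92 without WT replicate 1 and 0.50 without WT replicate 2. S100a1 was 3.40 and 5.31 FPKM in WT and 4.26 and 6.24 in DKO. S100a8, whose product forms calprotectin with that of S100a9, was 0.262 to 0.644 FPKM over the 4 untreated libraries, with overlapping groups. S100a9 had 1 read in the 4 untreated libraries together, and S100a4 and S100a5 had 2 each. S100a13 was 1.97 and 4.63 FPKM in WT and 3.99 and 3.53 in DKO, and S100a7a was 0.310 and 0.311 in WT and 0.829 and 0.326 in DKO. The neutrophil markers, 7 of 9 listed in the untreated table, summed to 0.111 to 0.507 FPKM there.

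The late cornified envelope genes were almost silent. None of the 16 Lce genes passed the filter on low values in either table, and no library held 1 FPKM of any of them. Their reads summed to 29 in WT replicate 1, 3 in WT replicate 2, 4 in DKO replicate 1 and 24 in DKO replicate 2 of the untreated mice. WT replicate 1 and DKO replicate 2 thus held most reads, as for Krt1 and Krt10, and 12 and 11 of the 16 genes had a read there against 3 and 3 in the others. A gene such as Lce1a1 with no read in a library could still lie at up to 0.187 FPKM in WT replicate 2, the level of 3 reads. The 5-aza table lists 1 of the 16, Lce3d, with 1 read in DKO replicate 2. Lce3c and Lce3d share 24.1% and 28.3% of their transcript's 100-base stretches with other Lce3 genes, so that their reads are uncertain.

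The other small proline-rich genes were also near 0. Sprr1b, the closest relative of Sprr1a, had 0 and 1 reads in untreated WT and 0 and 2 in DKO, and 4 reads in each 5-aza library except DKO replicate 2, which had 20. Sprr2a2, Sprr2a3 and Sprr2b had 0 to 3 reads a library in the untreated table, and Sprr2h, listed after 5-aza alone, had 0 reads but for 3 in DKO replicate 2. Sprr2a2 shares 92.8% of its 100-base stretches with Sprr2a1 and Sprr2a3, and its reads cannot be assigned with confidence. Sprr4 had 0 to 7 reads a library in both tables. No Sprr gene other than Sprr1a reached 10 reads in an untreated library.

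Over all members in untreated mice, 20 of the 44 passed the filter, and none passed the adjusted p threshold in limma or with voom; in limma 1 of 17339 genes did, a lower one (0.00577%; 0% were higher). At an unadjusted p under 0.05, 6 members were higher in DKO, namely Crct1, Crnn, Pglyrp3, Pglyrp4, S100a16 and Sprr1a, beside 6.72% of all tested genes, and 0 were lower, beside 4.73%. The median difference of the 20 was 0.22 against 0.01 over all tested genes, and 12 of the 20 were positive, beside 53.8% of all genes. Without a filter on low values, both DKO libraries lay above both WT libraries in 10 of the 44 (20.6% of all listed genes) and below both in 4 (15.7%), namely Flg, Flg2, Sprr4 and S100a5. Without WT replicate 1 these counts were 13 (29.6%) and 7 (36.1%). Among the 21 members with at least 10 reads over the 4 libraries, 9 lay above (23.5% of such genes) and 3 below (18.6%).

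**Figure D3:**
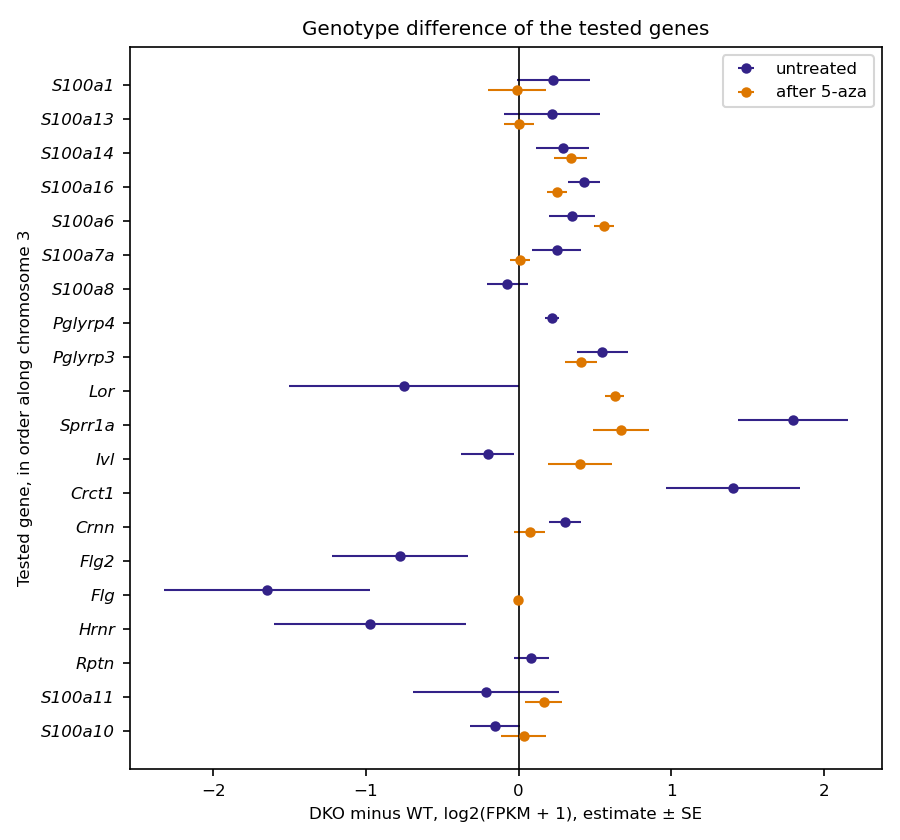
Difference of DKO minus WT in log2(FPKM + 1) with its SE from limma, for each member tested in the untreated libraries (dark) or after 5-aza (orange); a gene under the filter in a table has no point for it. Sprr1a and Crct1 have the largest positive estimates without treatment, 1.80 and 1.40, and Flg, Hrnr, Flg2 and Lor negative estimates with wide errors, and none passes the adjusted threshold.

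After 5-aza, S100a6 and Lor were higher in both DKO libraries than in both WT libraries. S100a6 was 10.3 and 10.2 FPKM in WT and 15.8 and 15.4 in DKO, so that the groups were far apart against the spread within each. The means were 10.3 ± 0.0769 and 15.6 ± 0.334 (SD, n = 2), a 1.52-fold difference, with a limma difference of 0.56 ± 0.066 (SE) and an adjusted p of 0.308 over 16856 genes. In the authors' deposited table, S100a6 rose in DKO by 0.53 ± 0.13 (SE) on the log2 scale, with an adjusted p of 0.00741 from DESeq2. It was the only one of 28 members past 0.05 there, where 0.547% of listed genes were higher in DKO and 0.161% lower.

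Lor was 0.417 and 0.332 FPKM in WT and 1.13 and 1.13 in DKO after 5-aza, from 27 to 117 reads a library. The means were 0.375 ± 0.0607 and 1.13 ± 0.00188 (SD, n = 2), a ratio of 3.01. The limma difference was 0.63 ± 0.062 (SE), with an adjusted p of 0.286, and the authors' deposited table gave an adjusted p of 0.0769. Flg, Flg2 and Hrnr were at no more than 0.0154, 0.000785 and 0.00392 FPKM, from 39, 2 and 8 reads over the 4 libraries. Hrnr had no read in either WT library, which allows up to 0.00300 FPKM by the level of 3 reads.

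Sprr1a was again higher in DKO, at 1.21 and 1.00 FPKM in WT and 1.83 and 2.96 in DKO. The ratio of means was 2.16, from 1.11 ± 0.147 and 2.40 ± 0.803 (SD, n = 2), with a limma difference of 0.67 ± 0.18 (SE) and an adjusted p of 0.454. The authors' deposited table gave an adjusted p of 0.965. Ivl was 2.24 and 1.71 FPKM in WT and 2.26 and 3.70 in DKO, apart by 0.0140 FPKM at the nearest, and the groups overlapped once scaled to the reads in listed genes.

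S100a16 was 10.4 and 10.5 FPKM in WT and 12.5 and 12.7 in DKO after 5-aza, and S100a14 was 27.1 and 24.3 in WT and 30.9 and 34.8 in DKO, both without overlap. Their limma adjusted p were 0.437 and 0.492. S100a11 was 29.5 and 31.2 FPKM in WT and 37.5 and 31.0 in DKO, and S100a10 was 24.9 and 19.5 in WT and 21.1 and 24.1 in DKO, both with overlapping groups. S100a1 was 6.998 and 5.77 FPKM in WT and 5.19 and 7.61 in DKO, a limma difference of -0.011 ± 0.19 (SE), and the sign of so small a difference is not a direction. S100a2, listed in the 5-aza table alone, was 0.203 and 0.279 FPKM in WT and 0.890 and 0.383 in DKO, from 3 to 11 reads.

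**Figure D4:**
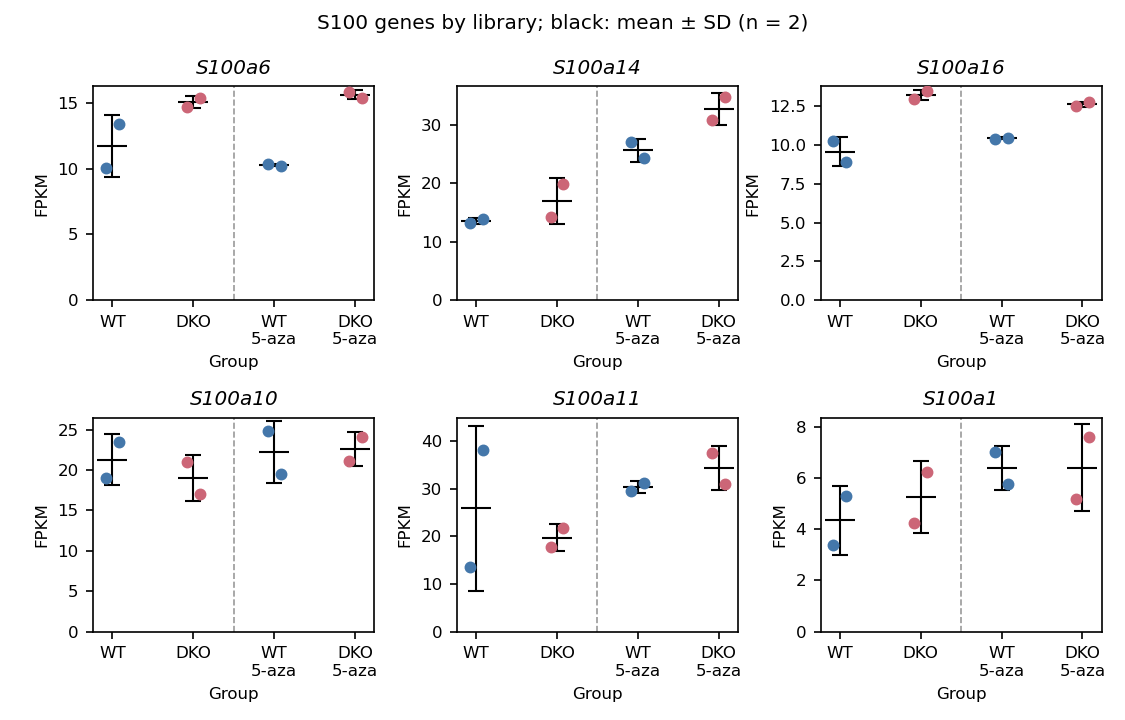
FPKM of 6 S100 genes in each library (WT blue, DKO red; untreated left and 5-aza right of the dashed line, in tables normalized separately), with the mean and SD of the 2 libraries in black and each axis starting at 0. S100a6 and S100a16 lie higher in both DKO libraries than in both WT libraries with and without 5-aza, and S100a11 in untreated WT spans 13.6 to 38.1 FPKM.

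Over all members after 5-aza, 14 of the 28 passed the filter and none passed the adjusted threshold in limma or with voom, nor did any other of the 16856 genes (0%). At an unadjusted p under 0.05, 6 members were higher in DKO, namely Lor, Pglyrp3, S100a14, S100a16, S100a6 and Sprr1a, beside 6.64% of all tested genes, and 0 were lower, beside 2.3%. The median of the 14 was 0.21 against 0.03 over all tested genes, and 12 of the 14 were positive, beside 62.8% of all genes. These counts lean on the scaling. With values scaled to the reads in listed genes 9 of the 14 were positive, with a median of 0.12 against -0.011 over all tested genes. At an unadjusted limma p under 0.05, 5 members were then higher and 0 lower. Over all tested genes the counts at that p went from 1120 higher and 387 lower to 741 and 707. Both DKO libraries lay above both WT libraries in 11 of the 28 (21.7% of all listed genes) and below both in 2 (11.2%), Flg2 and S100a9, which had 0 to 5 reads a library. Of the 11, Hrnr, Sprr4, S100a2 and Sprr1b lay under the filter, with 0 to 20 reads a library. Scaled to the reads in listed genes, 10 lay above (15% of all listed genes) and 2 below (17.6%).

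Of the cornification genes outside the complex, 27 were tested after 5-aza, with none past the adjusted threshold. At an unadjusted p under 0.05 in limma, 15 were higher, beside 6.64% of all tested genes, and 0 lower, beside 2.3%. Calm4, a calmodulin-like epidermal protein, was 4.12 and 4.003 FPKM in WT and 8.73 and 9.50 in DKO, with a limma difference of 1.00 ± 0.073 (SE) and an adjusted p of 0.209. Krt80, a keratin of differentiating epithelia, was 0.412 and 0.414 FPKM in WT and 1.37 and 1.30 in DKO, with an adjusted p of 0.240. The basal keratin gene Krt14 was 43.0 and 29.5 FPKM in WT and 71.1 and 95.2 in DKO, and the 5 basal and outer root sheath markers summed to 314 and 266 FPKM in WT and 456 and 503 in DKO. The suprabasal markers summed to 46.6 and 51.8 FPKM in WT and 75.2 and 80.5 in DKO. Most of this sum was Lypd3 alone, at 40.2 and 46.2 FPKM in WT and 62.7 and 62.2 in DKO. The part of a different mix of follicle and epidermal cells in these differences was not tested.

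Side by side, several granular-layer and suprabasal genes were lower in all 4 libraries after 5-aza than in all 4 without it. How many of all genes did so was not counted. FPKM are per library total, of which listed genes held 55.8% to 62.0% without 5-aza and 38.4% to 42.4% with it. Krt1 was 42.6 to 110 FPKM without 5-aza and 0.171 to 1.61 with it, and Krt10 was 63.4 to 174 and 0.703 to 4.87. Flg was 0.186 to 7.13 FPKM without 5-aza and 0 to 0.0154 with it, Sprr1a 4.68 to 27.7 and 1.00 to 2.96, and Crct1 0.973 to 8.60 and 0.0216 to 0.131. Ivl was 0.985 to 1.78 without and 1.71 to 3.70 with 5-aza, which overlap, and S100a14 was 13.2 to 19.8 and 24.3 to 34.8, higher in all 4 libraries after 5-aza. Crnn was 0.118 to 0.590 FPKM without and 0.180 to 0.420 with 5-aza, and thus overlapped. Lor, at 0.346 to 5.57 FPKM without and 0.332 to 1.13 with 5-aza, overlapped too. So did the suprabasal marker Lypd3, at 33.5 to 60.2 and 40.2 to 62.7 FPKM. The fibroblast gene Col1a1 was likewise 267 to 886 FPKM without 5-aza and 30.1 to 75.1 with it. Treatment, table and any difference in library preparation or sort between the tables cannot be told apart.

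The interaction asks whether the genotype difference itself differed with 5-aza, as the difference after 5-aza minus that without. It was fitted over 8 libraries for the 20 members that passed the filter, and none passed the adjusted threshold in limma, where 5 of 18505 genes did (0.027%), 0.0054% positive and 0.0216% negative. The median of the 20 was -0.01 against 0.02 over all tested genes, and 10 of the 20 were positive, beside 55.6% of all genes. At an unadjusted p under 0.05, 0 members were positive, beside 3.05% of all genes, and 2 were negative, Crct1 and Pglyrp4, beside 3.04%. Over all genes these shares stand for 564 positive and 562 negative genes, which became 438 and 682 with values scaled to the reads in listed genes. For Crct1 it was -1.37 ± 0.54 (SE, adjusted p 0.808) and for Pglyrp4 -0.22 ± 0.038 (adjusted p 0.371), and both genes were close to 0 in every 5-aza library. For Sprr1a it was -1.13 ± 0.48, with an adjusted p of 0.825. The largest positive estimates were those of Flg, 1.64 ± 0.82 with an adjusted p of 0.864, and Lor, 1.38 ± 0.92 with an adjusted p of 0.922. For Flg2 it was 0.78 and for Hrnr 0.98. Flg, Flg2 and Hrnr were close to 0 in every 5-aza library. For these genes, as for Crct1 and Pglyrp4, the interaction nearly restates the untreated difference with its sign turned. Without WT replicate 2 of the untreated mice, WT replicate 1 alone stands for untreated WT. The estimates were then 2.67 for Flg, 1.46 for Flg2 and 1.95 for Hrnr.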

How the data were processed

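FPKM of 8 libraries were used, from 2 tables, 1 per genotype comparison. The authors used Trim Galore, STAR, HTSeq and DESeq2, versions not given, on GRCm38 or mm10, per the submitters' processing notes. The labels name 2 library kits, 1 for mRNA and 1 for total RNA without ribosomal RNA, and do not say which served which library. The deposited library columns are the authors' FPKM per library total: times gene length, they are whole reads within 0.001. The deposited mean column is a signal, the mean of reads over a size factor. The deposited fold changes, with their standard errors, are on the log2 scale and were turned to DKO over WT here, the deposited statistic is the authors' score, and the deposited p-value columns hold p and adjusted p of DESeq2. The deposited length column, of unit other, gives bases. Rows that name no gene, with 40.4% (untreated) and 59.9% (5-aza) of the summed deposited mean, and 376 identifiers without a name in the 5-aza table were left out.

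Values were log2(FPKM + 1), fitted over all genes with a variance trend in limma 3.58.1 (R 4.3.3), with two-sided tests, Benjamini-Hochberg adjustment and a threshold of 0.05. Genes were kept if 2 or more libraries held the FPKM of 10 reads in a library of median size and all libraries together held 15 reads. The script was tested on simulated data. The levels with and without 5-aza were not tested, since the tables were normalized separately. Promoter sequences are RefSeq's, on GRCm38.p6, with no entry for Crct1, Lce1f, Pglyrp3, Pglyrp4, S100a10, S100a14 and S100a2.

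Genes were named by a rule: the 4 members with the smallest p per direction in each comparison, the 2 per direction in the interaction, the 6 with the highest mean FPKM, Lor, Ivl and Flg, and 2 genes per comparison from the lists outside the complex. Other members are given to account for the whole set. Krt1, Krt10, Krt14, Krt78, Cd207, Col1a1, Dcn, Pdgfra, Lypd3, Ces2f and Hist1h4m were named after their values were seen. The members, lists, filter and tests were chosen with earlier results of these data known. Other pseudocounts, filters, scalings, voom, a fit without a trend, a replicate block, 1 fit of 8 libraries and the omission of each library were tried.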

Additional observations from a re-analysis of the deposited data

Results flagged for a closer look

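Sprr4, a small proline-rich gene, had opposite genotype differences in the 2 tables, with no overlap between the groups in either. It was 0.571 and 1.34 FPKM in untreated WT and 0.392 and 0 in untreated DKO, from 3, 7, 2 and 0 reads. After 5-aza it was listed at 0 in both WT libraries and was 0.440 and 0.522 FPKM in DKO, from 4 and 7 reads. It lay under the filter on low values and was not tested with the other members. Without a filter the interaction was 1.27 ± 0.32 (SE), with an unadjusted p of 0.0077 and an adjusted p of 0.573 in limma, which does not pass the threshold. The level of 3 reads was 0.571 to 0.668 FPKM without 5-aza and 0.224 to 0.330 with it, so that most values lie near it.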

How the results depend on the processing

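No member passed the adjusted threshold in most settings, and the exceptions are given here. Untreated, Pglyrp4 was the 1 member called in the fit of 8 libraries. With the replicate block no member was called in either comparison or in the interaction. The count over all genes, 1 in untreated libraries, was 8 with a pseudocount of 0.1, 0 with no filter, a 0.1 FPKM filter or no trend, 147 with voom, 13 with the replicate block, 129 in the fit of 8 libraries, and 0 to 1 with a library left out. The untreated median of the members, 0.22, was 0.30 with the pseudocount of 0.1, 0.039 without a filter, 0.11 with the FPKM filter, 0.20 with either rescaling, 0.31 with voom, and 0.090 to 0.23 with a library left out. Members lower in both untreated DKO libraries numbered 7 of 44 without WT replicate 1 (36.1% of all listed genes), a setting chosen after seeing the data. After 5-aza the median, 0.21, was 0.031 without a filter and in the fit of 8 libraries, which called 1 gene in all. It was 0.12 and 0.14 with values rescaled to listed reads and by median ratio, and 0.35 with voom. With a library left out it was 0.23 to 0.33 (0.33 without WT replicate 1). Of the 21 members with at least 10 reads after 5-aza, 1 lay below both WT libraries (12.1% of such genes) and 10 above (26.5%). In the interaction the count over all genes, 5, was 1 with the pseudocount or voom, 2 without a filter, with the FPKM filter, either rescaling or no trend, 0 with the replicate block, and 0 to 8 with a library left out, which gave 0 to 3 members. Ivl in untreated libraries turned to 0.032 without WT replicate 1, within -0.44 to 0.032 with a library left out. Flg after 5-aza turned to 1.21 with voom and 0.0059 without DKO replicate 1 (-0.012 to 0.0059 with a library left out), and S100a1 to 0.026 with voom, 0.11 without WT replicate 1 and 0.23 without DKO replicate 1 (-0.25 to 0.23). The causes were not tested. Same-numbered libraries of WT and DKO correlated in their deviations at 0.032 untreated and -0.59 after 5-aza, and the labels do not say that the numbers pair the samples; untreated replicates 1 were both high in Xist and replicates 2 both low, so that the untreated block also splits the libraries by Xist level. With the numbers crossed after 5-aza, a setting chosen after seeing the data, 91 genes and 1 member passed. With 2 libraries a group and under 15 reads for most Lce and Sprr genes, differences in those were not detectable at this depth.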
